A study of Saccharomyces cerevisiae with 58 samples.

Results

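HCM1, FKH1, FKH2 and NDD1 encode transcription regulators that act one after another in the cell cycle of budding yeast. They were taken by name, each through the brightest probe set that the platform's gene table gives it, and are 4 of the 5449 genes measured. Each had 1 probe set, and the RefSeq annotation lists 0 genes that overlap any of them. They are HCM1 (YCR065W), NDD1 (YOR372C), FKH1 (YIL131C) and FKH2 (YNL068C). The study followed RNA over time on Affymetrix arrays, 30 from a strain without its normal B-type cyclin genes and 28 from wild type, and asked how much of the periodic transcription programme runs without these cyclins. Each strain had 2 cultures, which the series design calls biological replicates.

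The mutant is BF264-15DU MATa and carries clb1::URA3 and clb2::LEU2 in genes of mitotic cyclins, clb3::TRP1 and clb4::HIS2 in a further pair of cyclin genes, clb5::ARG4 and clb6::APE1 in those of the S-phase cyclins, and the construct GAL1-CLB1:LEU2. The wild type is BF264-15DU MATa; bar1, and the mutant's label does not list bar1. Small G1 cells of both strains were isolated by elutriation, a size separation, and grown in YEP dextrose with 1 M sorbitol at 30 °C. The GAL1 promoter is repressed by dextrose, so the mutant's only listed intact cyclin gene of this kind is a conditional copy, and how the cells were grown before elutriation was not stated. Mutant culture 2 and wild-type culture 1 were sampled from 30 to 254 min, and mutant culture 1 and wild-type culture 2 from 38 to 262 min, every 16 min. The wild-type arrays at 174 min of culture 1 and 198 min of culture 2 were not analysed here.

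As background, the 4 genes form a chain. In late G1 the SBF and MBF complexes turn on a wave of genes that includes HCM1, whose forkhead product is active in S phase and promotes transcription of FKH1, FKH2 and NDD1. The forkhead protein Fkh2 then sits with Mcm1 on promoters of the CLB2 cluster, the G2/M genes, and recruits the coactivator Ndd1, which binds no DNA itself. Fkh1 shares the forkhead DNA-binding domain with Fkh2 and binds many of the same promoters. B-type cyclins with the kinase Cdc28 phosphorylate Ndd1 and Fkh2, so the proteins depend on these cyclins at a step that RNA levels do not show.

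Values below are log2(intensity + 1) of the deposited probe set intensities. Levels are not compared between genes, since probe sets differ in brightness. CLB2, a targeted gene, was below the background level of 9.06 on all 15 arrays of each mutant culture, and ranged from 8.11 to 12.10 in wild type. Other disrupted genes still gave signal. CLB5 averaged 11.42 and 10.97 in the mutant cultures against 10.14 and 10.19 in the wild-type cultures, higher by 1.03 (limma, adjusted p = 0.0063). CLB6 averaged 9.90 and 10.08 in the mutant against 10.80 and 10.80 in wild type (-0.81, adjusted p = 0.00248). Where a probe set matches sequence outside the disrupted part, its signal does not check the disruption, and probe positions were not used here. The median over genes lay between 10.79 and 10.92 on every array. The correlation between successive arrays, taken over all cultures together, was 0.899 to 0.983 for pairs starting before 62 min and 0.976 to 0.999 afterwards. The lowest values were thus early, and the ranges overlapped. Of the markers of MATa cells, 5 of 7 were lower in the mutant over the course (limma, adjusted p under 0.05), and 1, BAR1, was higher. Among all genes 5.07% were lower and 5.69% higher. The strains' labels differ in BAR1, since only that of the wild type lists bar1. The summed signal of the 7 markers ranged from 13.22 to 15.94 in the mutant and from 14.93 to 15.85 in wild type from 62 min, with 1 of the 7 below background on average in each strain. By means over the course, the marker below background differed. It was ASG7 in the mutant (8.74, against 9.11 in wild type) and BAR1 in wild type (8.19, against 10.59 in the mutant). Of the 4 MATalpha markers, 2 were below background in each strain from 62 min (sums of 11.35 to 11.98 in the mutant and 11.62 to 12.31 in wild type). Of the 9 markers of meiosis, 8 in the mutant and 7 in wild type were below it (sums of 11.88 to 12.55 in the mutant and of 11.80 to 12.34 in wild type). In such bulk samples, fewer cells in a given stage and less RNA per cell cannot be told apart.

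All 4 members reached a first maximum between 90 and 137 min in both strains, and HCM1 came first in each of the 4 cultures. HCM1, NDD1 and FKH1 climbed to it from low early values. On the first arrays FKH2 was 0.10 and 0.42 below its first maximum in the mutant cultures and 1.66 and 1.05 below in wild type. No strain difference of a member passed the test from 30 to 54 min or from 62 to 102 min. FKH1 already lay higher in the mutant there, by 0.44 and 0.31 (limma, adjusted p of 0.71 and 0.437). After the first maximum FKH1 stayed high, at 2.08 times the wild-type level between 158 and 198 min, and NDD1 declined slowly. HCM1 was lower than in wild type from 158 to 230 min, and FKH2 was lower from 206 min. In wild type each of the 4 transcripts declined and later climbed by 0.31 or more. In the mutant no later climb within the sampled times exceeded 0.27.

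**Figure D1:**
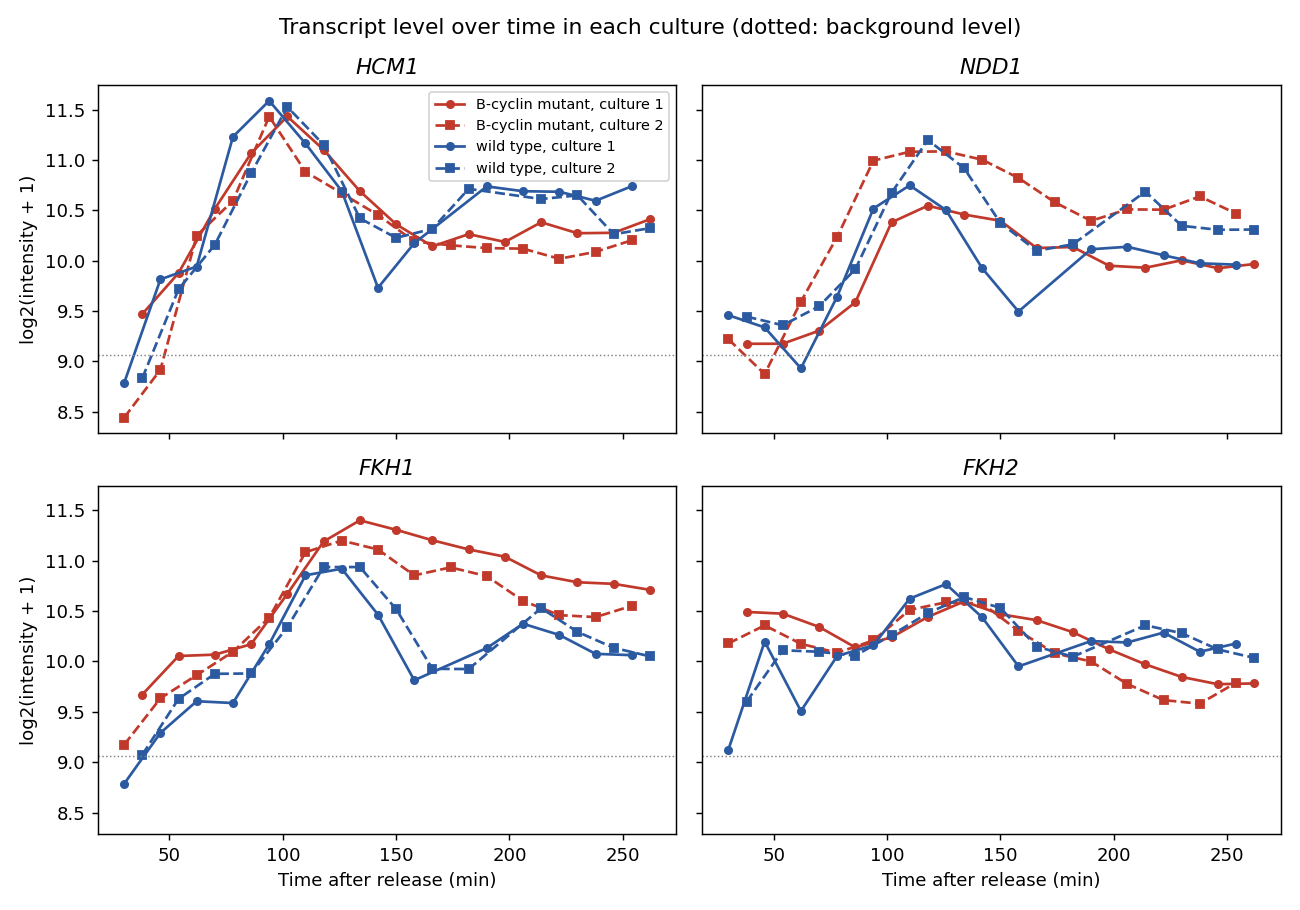
Level of each transcript against time after release, as log2(intensity + 1), for mutant cultures (red) and wild-type cultures (blue), with culture 1 as solid lines and circles and culture 2 as dashed lines and squares; the dotted line is the background level of 9.06. After the first maximum the red FKH1 curves stay above the blue ones, and the late climbs of the blue curves, of 0.31 to 1.01, exceed those of the red curves, of 0.00 to 0.27.

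HCM1, the forkhead factor at the head of the chain, ranged in mutant culture 1 from 9.47 at 38 min to 11.43 at 102 min with a median of 10.36. In mutant culture 2 it ranged from 8.44 at 30 min to 11.43 at 94 min with a median of 10.19. The wild-type cultures ranged from 8.79 to 11.59 (median 10.69, highest at 94 min) and from 8.83 to 11.53 (median 10.37, highest at 102 min). The maxima of the 4 cultures thus lay close together. Signals were below background on 2 early arrays of mutant culture 2 and on 1 of each wild-type culture. Averaged over shared times, HCM1 was 10.45 and 10.17 in the mutant cultures and 10.47 and 10.41 in the wild-type cultures, a difference of -0.13 ± 0.11 (SE, n = 2 cultures per strain; limma, adjusted p = 0.465). The strains overlapped, and no difference in mean level was detected.

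To follow the difference along the course, the cultures were compared in 6 windows of time, of 2 or 3 arrays per culture. HCM1 did not differ detectably in the windows of 30 to 54 min (-0.11), 62 to 102 min (0.00) and 110 to 150 min (0.13). Between 158 and 198 min it was 10.20 and 10.16 in the mutant and 10.46 and 10.52 in wild type, lower by 0.31 ± 0.08 (difference -0.31, adjusted p = 0.0467). Between 206 and 230 min it was 10.33 and 10.07 in the mutant and 10.69 and 10.63 in wild type, at 0.727 times the wild-type level (difference -0.46 ± 0.12, adjusted p = 0.0337). The cultures of the strains did not overlap in either window. From 238 min the difference was -0.24 ± 0.15 (adjusted p = 0.267), with 10.34 and 10.15 in the mutant against 10.67 and 10.29 in wild type. The call of 158 to 198 min was lost without mutant culture 2 (adjusted p = 0.0529), without wild-type culture 1 (0.215) and without wild-type culture 2 (0.305). The call of 206 to 230 min was lost without wild-type culture 1 (0.232) and without wild-type culture 2 (0.178). From 238 min HCM1 was called lower without mutant culture 1 (-0.33, adjusted p = 0.0147).

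The largest climb of HCM1 from any array after its first maximum to a later one was 0.27 and 0.18 in the mutant cultures and 1.01 and 0.49 in the wild-type cultures. From 158 min on, HCM1 stayed between 10.14 and 10.41 on the 7 arrays of mutant culture 1 and between 10.02 and 10.20 on those of mutant culture 2. On the 6 arrays of each wild-type culture it lay between 10.17 and 10.74 and between 10.26 and 10.71. By window, the mutant order was 62 to 102 min (10.88), 110 to 150 min (10.69), then 238 to 262, 206 to 230 and 158 to 198 min (10.24, 10.20 and 10.18), and last 30 to 54 min (9.18). The values of the 3 late windows overlapped between cultures in the mutant. The wild-type order was 62 to 102 min (10.89), 206 to 230 min (10.66), 110 to 150 min (10.56), 158 to 198 min (10.49), 238 to 262 min (10.48) and 30 to 54 min (9.29), of which only the windows of 158 to 198 and 238 to 262 min overlapped as neighbours.

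NDD1, the coactivator, differed more between cultures of a strain than between strains. It ranged from 9.17 to 10.55 (median 9.97) in mutant culture 1 and from 8.87 to 11.09 (median 10.51) in mutant culture 2. It ranged from 8.93 to 10.75 (median 9.97) in wild-type culture 1 and from 9.36 to 11.20 (median 10.31) in wild-type culture 2. The cultures interleave, with mutant culture 2 and wild-type culture 2 the higher ones. The means of 9.94 and 10.39 in the mutant and 9.91 and 10.24 in wild type gave a difference of 0.09 ± 0.17 (adjusted p = 0.792). None of the 6 windows was called (differences from -0.29 to 0.40), and the largest, 0.40 ± 0.18 between 158 and 198 min, had an adjusted p of 0.164. In that window NDD1 was 10.13 and 10.61 in the mutant and 9.80 and 10.13 in wild type. Without mutant culture 1 NDD1 was called higher there (0.64, adjusted p = 0.0271) and from 238 min (0.42, adjusted p = 0.00202).

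The shape of NDD1 after its maximum separated the strains more than its level. In mutant culture 2 it read 10.99, 11.08, 11.09 and 11.00 at 94, 110, 126 and 142 min, a plateau, and in mutant culture 1 it read 10.55, 10.46, 10.40 and 10.13 at 118, 134, 150 and 166 min. In wild-type culture 1 it went through 10.75, 10.50, 9.92 and 9.50 at 110, 126, 142 and 158 min, and in wild-type culture 2 through 11.20, 10.92, 10.37 and 10.10 at 118, 134, 150 and 166 min. By window the mutant means were 10.76 (110 to 150 min), 10.37 (158 to 198), 10.25 (238 to 262), 10.24 (206 to 230), 10.02 (62 to 102) and 9.11 (30 to 54). The wild-type means were 10.61 (110 to 150 min), 10.31 (206 to 230), 10.14 (238 to 262), 9.97 (158 to 198), 9.87 (62 to 102) and 9.40 (30 to 54). In both strains, neighbours in these orders overlapped between cultures except for the lowest window.

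FKH1, which encodes the close relative of Fkh2, was the member with a higher mean level in the mutant. It ranged from 9.67 to 11.40 (median 10.79) in mutant culture 1 and from 9.17 to 11.20 (median 10.55) in mutant culture 2. In wild type it ranged from 8.79 to 10.92 (median 10.10) in culture 1 and from 9.07 to 10.94 (median 10.09) in culture 2. Both mutant medians were above both wild-type medians. Mean levels of 10.71 and 10.45 in the mutant and 10.03 and 10.15 in wild type gave a 1.41-fold difference (0.50 ± 0.11, adjusted p = 0.0319), without overlap of the cultures. Among all genes 10.8% were called in this comparison, 5.69% higher and 5.07% lower, and the cultures of 58.3% did not overlap. Of the 4 members 1 was called and 1 did not overlap, so the count is too small to set apart from these shares. Without wild-type culture 1 the FKH1 difference was 0.44 with an adjusted p of 0.112.

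The strain difference of FKH1 was largest between 158 and 198 min. The arrays at 166 and 182 min of mutant culture 1 read 11.20 and 11.11, and those at 158 and 190 min of mutant culture 2 read 10.86 and 10.85. Wild-type culture 1 read 9.81 and 10.13 at 158 and 190 min, and wild-type culture 2 read 9.93 and 9.92 at 166 and 182 min. Every mutant array of the window was above every wild-type array. The difference was 1.06 ± 0.12, or 2.08-fold (adjusted p = 0.00293), and this call held under every alternative run for it. FKH1 was also higher between 110 and 150 min (11.30 and 11.13 in the mutant, 10.75 and 10.80 in wild type; 0.44 ± 0.09, adjusted p = 0.0426) and between 238 and 262 min (10.74 and 10.50 in the mutant, 10.07 and 10.09 in wild type; 0.54 ± 0.12, adjusted p = 0.0174). Those calls were less firm. That of 110 to 150 min was lost without mutant culture 1 (adjusted p = 0.0598), wild-type culture 1 (0.298) or wild-type culture 2 (0.145), and that of 238 to 262 min without wild-type culture 1 (0.127) or wild-type culture 2 (0.107).

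In the other windows the FKH1 difference was 0.44 (30 to 54 min, adjusted p = 0.71), 0.31 (62 to 102 min, adjusted p = 0.437) and 0.31 (206 to 230 min, adjusted p = 0.116). Without mutant culture 2 that of 206 to 230 min was 0.46 with an adjusted p of 0.00196. By window the mutant order was 110 to 150 min (11.22), 158 to 198 min (11.00), 206 to 230 min (10.68), 238 to 262 min (10.62), 62 to 102 min (10.22) and 30 to 54 min (9.63). The cultures of the first pair of windows overlapped, as did those of the pair from 206 min. In wild type the order was 110 to 150 min (10.77), 206 to 230 min (10.37), 238 to 262 min (10.08), 158 to 198 min (9.95), 62 to 102 min (9.91) and 30 to 54 min (9.19), and only the windows of 158 to 198 and 62 to 102 min overlapped as neighbours. The window of 158 to 198 min was thus the second highest in the mutant, and in wild type it was lower than the windows on either side.

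FKH2, the forkhead partner of Mcm1, had the smallest range over time among the members in every culture of both strains. It ranged from 9.77 to 10.60 (median 10.29) in mutant culture 1 and from 9.58 to 10.59 (median 10.18) in mutant culture 2, with the lowest values at 246 and 238 min. In wild type it ranged from 9.12 to 10.77 (median 10.18) in culture 1 and from 9.60 to 10.64 (median 10.13) in culture 2, with the lowest values on the first array. The mutant therefore had its low point late and the wild type early. Mean levels were 10.23 and 10.13 in the mutant and 10.13 and 10.20 in wild type (0.02 ± 0.08, adjusted p = 0.926).

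In the first window FKH2 read 10.49 and 10.47 in mutant culture 1 and 10.18 and 10.36 in mutant culture 2, against 9.12 and 10.20 in wild-type culture 1 and 9.60 and 10.11 in wild-type culture 2. The difference of 0.62 ± 0.17 did not pass the test (adjusted p = 0.671), in which cultures were not paired by their sampling times. Between 206 and 230 min FKH2 was 9.91 and 9.70 in the mutant and 10.24 and 10.32 in wild type, at 0.719 times the wild-type level (-0.48 ± 0.11, adjusted p = 0.0258). Between 238 and 262 min it was 9.78 and 9.68 in the mutant and 10.14 and 10.08 in wild type (-0.38 ± 0.10, adjusted p = 0.0296). The cultures did not overlap in these windows. Each call was lost without wild-type culture 1 (adjusted p of 0.158 and 0.25) and without wild-type culture 2 (0.209 and 0.176). In the middle windows the differences were 0.18, -0.05 and 0.16, none called.

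Ordered by window, FKH2 in the mutant was 10.53 (110 to 150 min), 10.38 (30 to 54), 10.25 (158 to 198), 10.20 (62 to 102), 9.80 (206 to 230) and 9.73 (238 to 262). In wild type it was 10.58 (110 to 150 min), 10.28 (206 to 230), 10.11 (238 to 262), 10.09 (158 to 198), 10.02 (62 to 102) and 9.76 (30 to 54). Cultures of the highest window did not overlap those of the next in either strain. In the mutant the next 3 windows overlapped as neighbours, as did the last 2. In wild type the windows of 238 to 262, 158 to 198 and 62 to 102 min overlapped as neighbours.

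**Figure D2:**
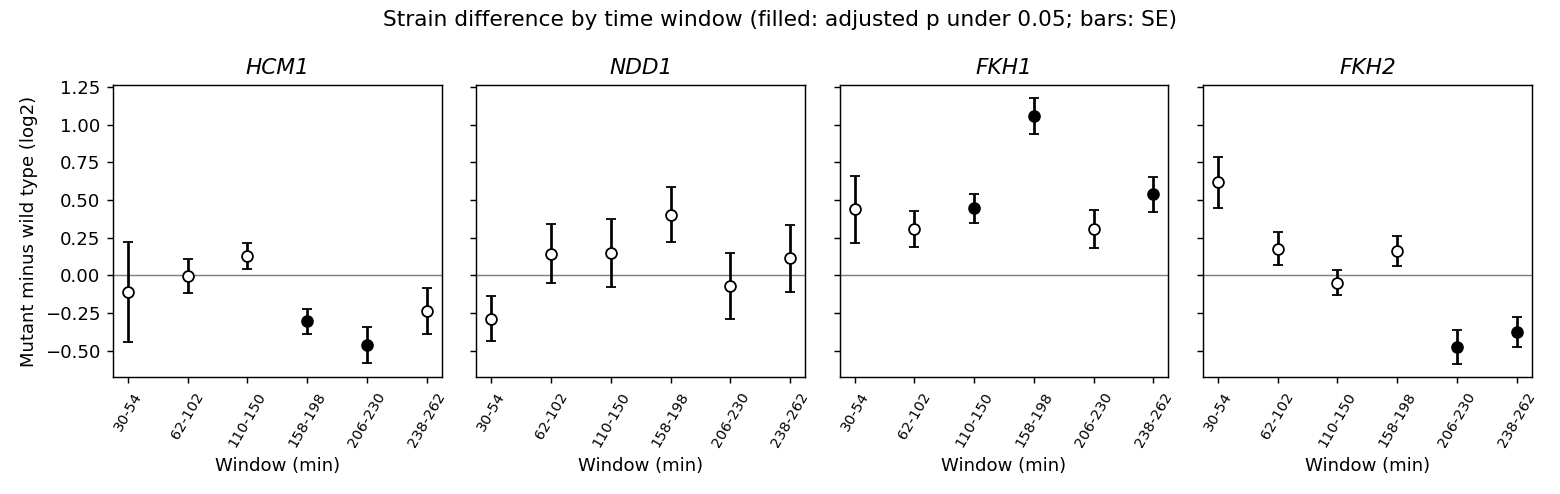
Mutant minus wild-type difference (log2) of each transcript in 6 windows of time after release, with bars for the standard error over 2 cultures per strain; filled points have an adjusted p under 0.05. The largest difference is that of FKH1 between 158 and 198 min, at 1.06, and those of HCM1 and FKH2 between 206 and 230 min lie at -0.46 and -0.48.

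These counts stand beside the background of each window. All genes were called at 0.11% between 30 and 54 min and at 0.844% between 62 and 102 min, where 0 of the 4 members was called. Between 110 and 150 min 1 of 4 was called, against 8.7% of all genes (4.59% higher, 4.11% lower). Between 158 and 198 min 2 of 4 were called, 1 higher and 1 lower, against 23.3% (13.6% higher, 9.73% lower). Then 2 of 4 were called between 206 and 230 min (29.9% of all genes) and 2 of 4 between 238 and 262 min (35.5%). With 4 members, 2 calls beside such shares set nothing apart about the members as a group.

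Other groups of genes moved in the same late windows. Of all 5449 genes, 740 were higher in the mutant and 530 lower between 158 and 198 min. These counts were 901 and 728 between 206 and 230 min, and 1068 and 864 from 238 min. Among 15 environmental stress genes, the mutant had 13 at a higher and 1 at a lower level in both windows from 206 min (medians of 1.49 and 1.82), and 11 were higher and 1 lower between 158 and 198 min. Without wild-type culture 1 the higher counts of these 3 windows, latest last, were 8, 7 and 9, and without wild-type culture 2 they were 6, 7 and 9. The summed stress signal ranged from 13.79 to 16.38 in the mutant and from 13.74 to 15.88 in wild type from 62 min, and from 15.80 to 17.96 in the mutant and from 16.88 to 17.87 in wild type before that. Of the MATa markers, 6 of 7 were lower from 158 min. The 1 other, BAR1, in which the strains' labels differ, was higher. In each earlier window 1 of the 7 was higher too, and 5 were already lower between 110 and 150 min, with 0 lower before that. The part of these groups in the late differences of HCM1, FKH1 and FKH2 was not tested.

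The strain difference of each member changed with time in a spline fit over all 58 arrays. The adjusted p of the strain by time interaction (limma F-test) was 6.87e-09 for FKH1, 5.45e-08 for FKH2, 0.00209 for NDD1 and 0.01 for HCM1. All 4 members were called, as were 73.7% of all genes; arrays of a culture follow each other in time, so p-values that treat them as independent may be too low. The interaction of HCM1 was lost without mutant culture 1 (adjusted p = 0.118) and that of NDD1 without wild-type culture 1 (0.0503). The dynamic range, the spread of a culture's detrended values over time, was not called for any member, against 0.147% of genes, with 518 genes at an unadjusted p under 0.05 (limma). The SD over time was 0.225 in the mutant and 0.323 in wild type for FKH2, the widest gap among the members (-0.52 ± 0.33 on the log2 scale, adjusted p = 0.62).

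The first maximum of HCM1 came before those of NDD1, FKH1 and FKH2 in each culture. Peak times were read from a spline through each culture's values between 62 and 158 min. HCM1 peaked at 102 and 95 min in the mutant and at 90 and 104 min in wild type. NDD1 followed at 114 and 103 min in the mutant and at 108 and 120 min in wild type. FKH1 came at 135 and 121 min in the mutant and at 119 and 125 min in wild type. FKH2 came at 134 and 135 min in the mutant and at 122 and 137 min in wild type. HCM1 was first and NDD1 second in all 4 cultures by this reading, and FKH1 preceded FKH2 in 3 of them, with 1 min between them the other way round in mutant culture 1. CLB2 peaked after all 4 in wild type by the spline, at 135 and 146 min. By the highest array it tied with FKH1 and FKH2 at 126 min in wild-type culture 1, and came last, at 150 min, in wild-type culture 2.

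**Figure D3:**
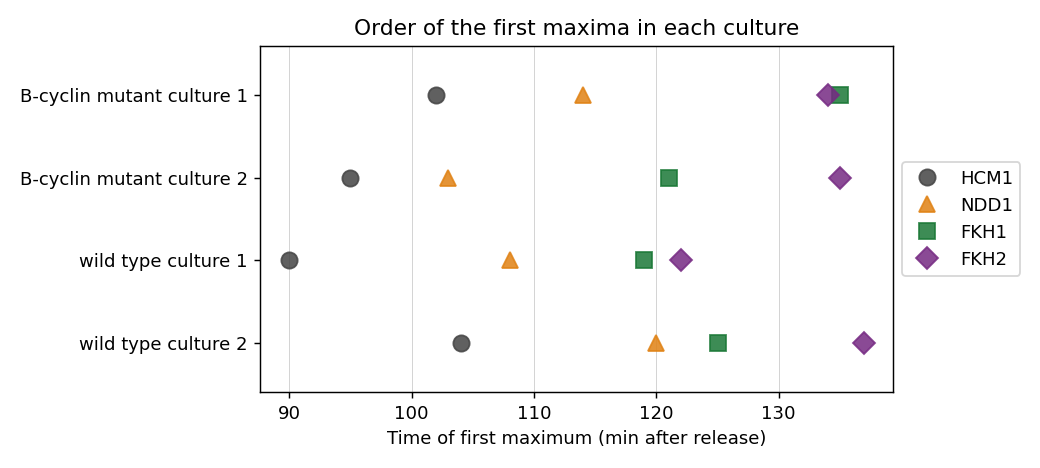
Time of the first maximum of each transcript, in min after release, with a line for each of the 4 cultures (mutant above wild type) and a symbol for each gene. HCM1 lies leftmost, from 90 to 104 min, and FKH1 and FKH2 lie rightmost, from 119 to 137 min.

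Measured as a lag behind HCM1 in the same culture, NDD1 followed by 12 and 8 min in the mutant and by 18 and 16 min in wild type (means of 10 ± 2.8 min in the mutant and 17 ± 1.4 min in wild type, SD, n = 2). FKH1 followed by 33 and 26 min in the mutant and 29 and 21 min in wild type. FKH2 followed by 32 and 40 min in the mutant and 32 and 33 min in wild type. The lags of FKH1 and FKH2 overlapped between strains. Those of NDD1 did not, with an exact permutation p of 0.333, the smallest possible two-sided value with 4 cultures. The NDD1 lag of the mutant also depended on how the peak was read. It became 24 min from the time of the highest array and 22 min in both cultures from a smoothing spline, and mutant culture 2 holds the plateau described above. Arrays are 16 min apart, so lags of a few min are finer than the sampling. By the highest array NDD1, FKH1 and FKH2 tied at 126 min in mutant culture 2, and NDD1 and FKH1 at 118 min in wild-type culture 2, while HCM1 stayed first in all 4 cultures.

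In the first 40 min after their maxima, the transcripts declined less in the mutant than in wild type. This measure, the fall within 40 min of a culture's own maximum, was defined after the courses were seen and is given without a test. FKH1 was lower by 0.25 and 0.36 in the mutant cultures and by 1.18 and 1.06 in the wild-type cultures. NDD1 was lower by 0.23 and 0.11 in the mutant and by 1.04 in each wild-type culture. FKH2 was lower by 0.23 and 0.53 in the mutant and by 0.87 and 0.61 in wild type. HCM1 was lower by 0.91 and 0.87 in the mutant and by 1.19 and 1.29 in wild type. The gap between strains was wide for FKH1 and NDD1 and narrow for HCM1 and FKH2. Over the later arrays FKH2 went the other way. From 158 min its arrays spanned 0.64 and 0.72 in the mutant cultures, with the lowest values late, and 0.34 and 0.32 in the wild-type cultures. With a smoothing spline the FKH1 falls became 0.23 and 0.25 in the mutant and 0.84 and 0.83 in wild type, and the NDD1 falls 0.31 and 0.34 in the mutant and 0.91 and 0.80 in wild type. The HCM1 falls became 0.77 and 0.63 in the mutant and 1.20 and 0.95 in wild type. Those of FKH2 nearly met, at 0.22 and 0.40 in the mutant and 0.59 and 0.44 in wild type.

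**Figure D4:**
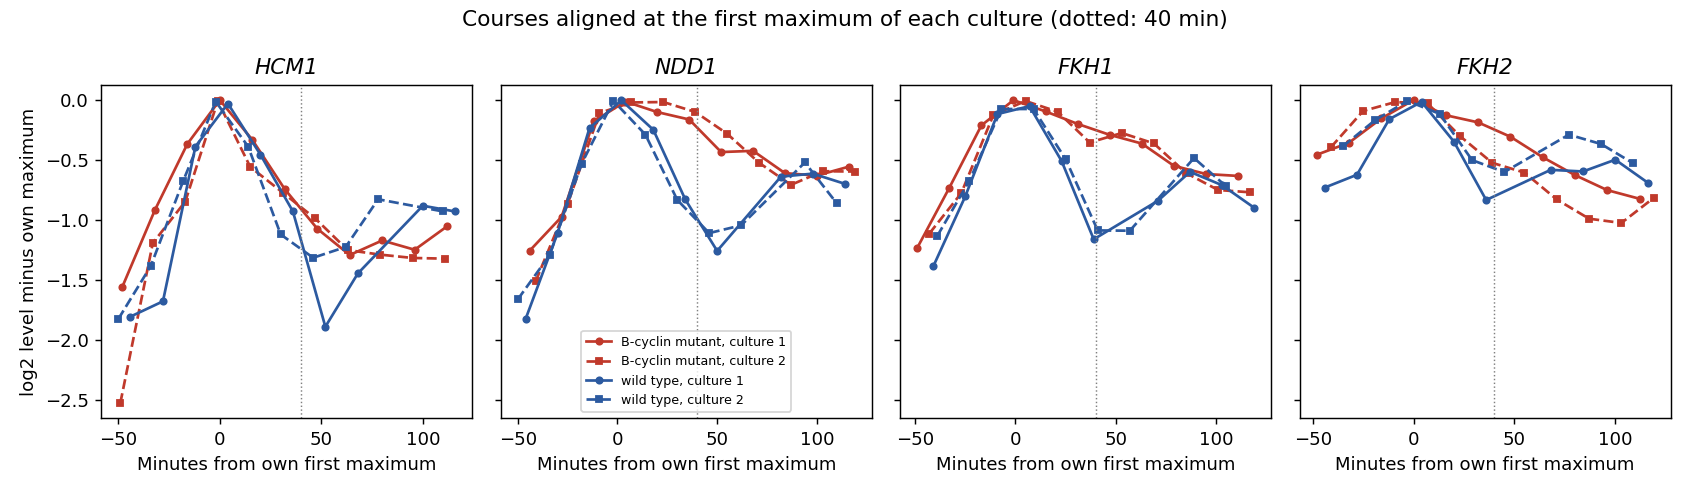
Level of each transcript relative to its own first maximum (log2) against minutes from that maximum, for mutant cultures (red) and wild-type cultures (blue); the dotted line marks 40 min. By the spline, which is not drawn, FKH1 and NDD1 at 40 min were within 0.36 of their maxima in the mutant and more than 1 below in wild type.

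The late climb was also smaller in the mutant. It was taken as the largest increase from any array after the first maximum to a later array of the culture, was defined after the courses were seen and is given without a test. For NDD1 it was 0.07 and 0.24 in the mutant cultures and 0.64 and 0.59 in the wild-type cultures. For FKH1 it was 0.00 and 0.11 in the mutant and 0.56 and 0.61 in wild type. For FKH2 it was 0.01 and 0.21 in the mutant and 0.34 and 0.31 in wild type. The strains did not overlap for any of the 4 members, and the gap was narrowest for FKH2, whose climb in mutant culture 2 ran from 238 min to the last array at 254 min. By the spline, wild-type FKH1 reached its second maximum at 208 and 213 min, FKH2 at 221 and 216 min and NDD1 at 198 and 211 min. The second maximum of HCM1 was at 189 min in wild-type culture 2 and at the last array, 254 min, in wild-type culture 1.

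HCM1, FKH1 and NDD1 were periodic in each strain by a cosine fit, where a call needed 1.5-fold from peak to trough and an adjusted p under 0.05. That is 3 of 4 members, against 10.6% of genes in the mutant and 11.1% in wild type. The period was set from 25 G1/S genes to 149 min in the mutant and 102 min in wild type. In single cultures these genes gave 129 and 134 min in the mutant and 95 and 96 min in wild type. The fitted peak-to-trough was 1.13 ± 0.24 in the mutant and 1.32 ± 0.23 in wild type for HCM1, and 1.00 ± 0.20 in the mutant and 0.98 ± 0.18 in wild type for NDD1. That of FKH1 was 0.91 ± 0.19 in the mutant and 0.73 ± 0.23 in wild type (adjusted p of 0.00203 and 0.0468). FKH2 had 0.51 ± 0.07 in the mutant, under the 1.5-fold limit despite an adjusted p of 4.22e-05, and 0.33 ± 0.17 in wild type (adjusted p = 0.246). With the mean of the periods of single cultures FKH1 was periodic in neither strain (0.49 with an adjusted p of 0.247 in the mutant, 0.64 with 0.109 in wild type). In a fit to single cultures, FKH1 lost its mutant call without culture 1 (adjusted p = 0.128) and without culture 2 (0.0531), and HCM1 and NDD1 lost theirs without culture 1 (0.153 and 0.088), while FKH2 gained a call there (0.63). In wild type 0 of the 4 members was called from a single culture (adjusted p of 0.0604 without culture 1 and 0.182 without culture 2 for HCM1, 0.132 and 0.176 for NDD1, and 0.285 and 0.326 for FKH1). The mutant courses held a single clear maximum, so the cosine fit does not show a repeat there.

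The members' courses also differed in how they resembled each other. Over the arrays of a strain, FKH1 and FKH2 correlated at 0.119 in the mutant (30 arrays) and 0.885 in wild type (28 arrays), and from 62 min at 0.466 in the mutant and 0.907 in wild type. FKH1 and NDD1 correlated at 0.89 in the mutant and 0.854 in wild type, and from 62 min at 0.816 in the mutant and 0.859 in wild type. HCM1 and NDD1 correlated at 0.738 in the mutant and 0.677 in wild type, and from 62 min at 0.377 in the mutant and 0.558 in wild type. HCM1 and FKH1 correlated at 0.533 in the mutant and 0.637 in wild type, and from 62 min at -0.0834 in the mutant and 0.19 in wild type. The correlations of HCM1 with NDD1 and FKH1 were thus lower without the earliest arrays. These are descriptions over arrays that share cultures and follow each other in time.

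The 5 genes most like each member were taken by Pearson correlation over all 58 arrays after centring each culture. For HCM1 these were HIF1 (0.952), a histone chaperone subunit, PHS1 (0.946), a fatty acid elongation enzyme, POL32 (0.942), of DNA polymerase delta, POL1 (0.942), the catalytic subunit of DNA polymerase alpha, and the cohesin gene SMC3 (0.942). For NDD1 they were NUD1 (0.955), a scaffold of the spindle pole body, the helicase gene SRS2 (0.952), NRM1 (0.947), a corepressor of MBF, ALG7 (0.941) and YJL118W (0.941). NUD1 (YOR373W) is the annotated neighbour of NDD1 (YOR372C) and ranked 1 of all genes. Its level difference was 0.31 (adjusted p = 0.0828).

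For FKH1 the most alike were FIR1 (0.948), the kinesin partner gene CIK1 (0.945), ALG5 (0.941), a glycosylation enzyme, HTZ1 (0.933), which encodes histone H2A.Z, and GAS3 (0.931). For FKH2 they were BOI2 (0.889), which acts in polar growth, RPS24B (0.805), GCN5 (0.794), a histone acetyltransferase, RPS14B (0.789) and YBR197C (0.784). RPS24B and RPS14B encode ribosomal proteins. The closest matches of FKH2 correlated less than those of the other members, whose 5 genes each lay at 0.931 or above. Genes next to HCM1, FKH1 and FKH2 in the annotation correlated with them at 0.526 or less.

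Upstream of the chain, the G1 cyclin genes CLN1 (0.98 ± 0.10, adjusted p = 0.00156) and CLN2 (0.87 ± 0.14, adjusted p = 0.011) were higher in the mutant over the course and CLN3 was lower (-0.73 ± 0.15, adjusted p = 0.0272). These were the 3 of 10 listed regulators called in level, 2 higher and 1 lower, against 10.8% of all genes (5.69% higher, 5.07% lower), and the median of the 10 was 0.11, beside 0.02 over all genes. By the spline, SWI4, the DNA-binding subunit of SBF, peaked 3 min before HCM1 in both mutant cultures and 5 and 3 min before it in wild type. These gaps are finer than the sampling of every 16 min. The highest arrays of SWI4 and HCM1 were the same in both mutant cultures and in wild-type culture 2. SWI4 was below background on 3 and 8 arrays of the mutant cultures and on 2 and 4 of the wild-type cultures. SWI4 was lower in the mutant than in wild type between 158 and 198 min (-0.88, adjusted p = 0.00562), the first window in which HCM1 was lower. MBP1 (0.47, adjusted p = 0.0556) and SWI6 (0.06, adjusted p = 0.738) were not called in that window. Of 26 G1/S genes, 3 were higher and 14 lower in that window (13.6% and 9.73% of all genes), with a median of -0.44, beside 0.02 over all genes. Fewer were called lower without either wild-type culture, with a median of -0.45 each time.

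Of 15 S phase genes commonly assigned to Hcm1, 7 were higher and 2 lower in the mutant between 158 and 198 min (13.6% and 9.73% of all genes), with a median of 0.52, beside 0.02 over all genes. Without each culture in turn, 7 to 9 were higher and 2 to 4 lower, the most without mutant culture 2. In the mutant SPC98, of the spindle pole body, was higher by 1.29 and YHP1, a repressor gene, by 1.11, and the deacetylase gene HST4 was lower (-1.52). Also higher were the kinesin genes CIN8 (0.93), KAR3 (1.09) and KIP1 (0.71), STU2 (0.87) and SLK19 (0.78), while the gamma-tubulin gene TUB4 was lower (-0.65). In the window before, 3 were higher and 1 lower (median 0.15), with 6 and 2 without mutant culture 2, 1 and 1 without wild-type culture 2, and 0 and 0 without wild-type culture 1. From 206 min the counts were 2 higher and 4 lower, then 3 higher and 5 lower, and fewer were called without either wild-type culture. Of all 5449 genes, 901 were higher and 728 lower between 206 and 230 min, and 1068 and 864 from 238 min.

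The CLB2 cluster, the genes on which Fkh2, Ndd1 and Mcm1 act, was lower in the mutant from 110 min. Of 20 measured members other than the disrupted cyclins, 14 were lower and 1 higher between 110 and 150 min (4.11% and 4.59% of all genes), with a median of -1.10, beside 0.04 over all genes, and 13 to 18 were lower without each culture in turn. The cytokinesis gene HOF1 differed by -3.05, MMR1, for mitochondrial inheritance, by -2.21 and CDC20, for anaphase, by -1.89. Between 158 and 198 min 10 were lower and 3 higher (median -0.37), between 206 and 230 min 12 were lower and 0 higher (-0.80), and from 238 min 11 were lower and 2 higher (-0.80). Of all 5449 genes, 530 were lower and 740 higher in the first of these windows, 728 and 901 in the next, and 864 and 1068 in the last. The exception between 110 and 150 min was the kinase gene KIN3 (0.89, adjusted p = 0.0285), chosen for mention after its values were seen, which was also higher between 62 and 102 min (2.76, adjusted p = 3.80e-05), lower between 158 and 198 min (-0.67, adjusted p = 0.0192) and higher from 238 min (0.51, adjusted p = 0.0251). KIN3 was not called between 110 and 150 min without either wild-type culture. In the window of 110 to 150 min the transcripts of FKH2 and NDD1 differed by -0.05 and 0.15, neither called. Of 11 partners and enzymes, 2 were lower and 1 was higher in level, against 10.8% of all genes (5.07% lower, 5.69% higher), namely MCM1 (-0.38, adjusted p = 0.0323), CDC5 (-0.57, adjusted p = 0.0213) and CDC28 (0.49, adjusted p = 0.0107).

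**Figure D5:**
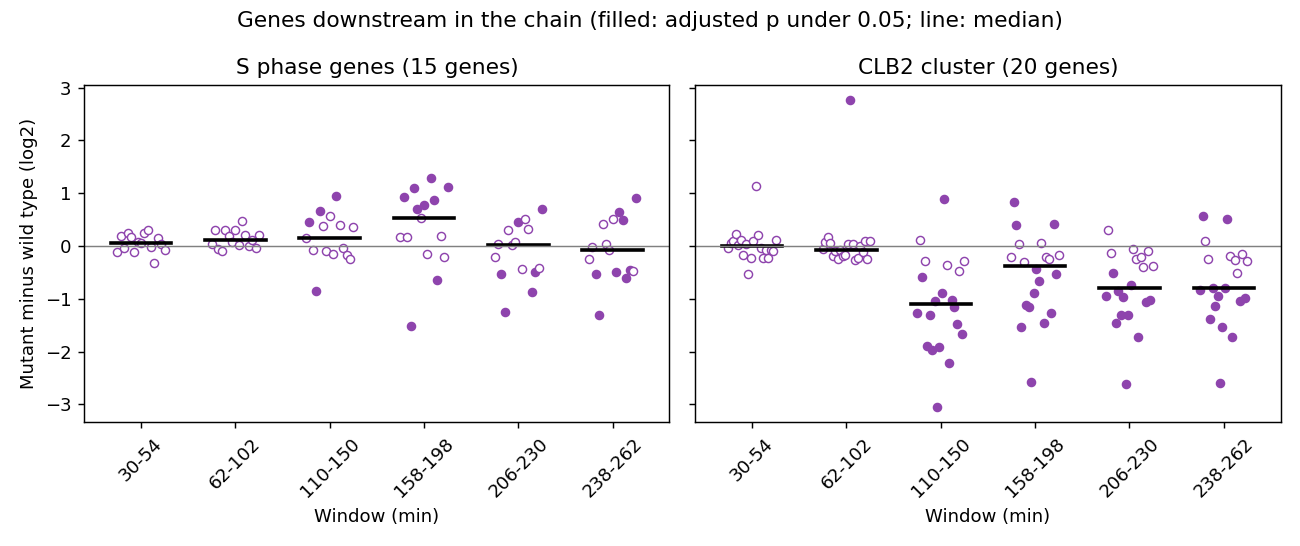
Mutant minus wild-type difference (log2) of 15 S phase genes and 20 genes of the CLB2 cluster in 6 windows of time after release; filled points have an adjusted p under 0.05 and the bar is the list's median. The CLB2 cluster lies mostly below 0 from 110 min, with a median of -1.10 between 110 and 150 min, and the S phase genes lie mostly above 0 between 158 and 198 min.

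The related forkhead-like factor FHL1, which acts on ribosomal protein genes, and its coactivator IFH1 were not called in level (-0.16, adjusted p = 0.333, and 0.00, adjusted p = 0.999). FHL1 was lower from 238 min only (-0.48, adjusted p = 0.0293).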

How the data were processed

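Transcripts were measured on Affymetrix arrays, 1 per time point and culture. The deposited values are linear probe set intensities, made with the package affy, version 1.8.1, as the submitters' processing notes name it. Background correction, summary and scaling are not given in the sources used here. Array means of 2067 to 2121 show a common scale. Deposited intensities were converted to log2(intensity + 1).

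Of 10928 probe sets, 5498 matched RefSeq genes by Entrez number and gave 5449 genes, using the brightest for the 47 genes with several. The 95th percentile of 1746 named probe sets outside the annotation (9.06) served as background. Strains were compared with limma 3.58.1 (R 4.3.3) on culture means (n = 2) at 56 arrays of shared times, with Benjamini-Hochberg adjustment over all genes and within each window. The interaction F-test used all arrays, with a spline of time of 8 degrees of freedom (splines 4.3.3). Cosine F-tests used the arrays of a single strain, with terms for culture and linear time and no spline. Steps were tested on simulated data. The number of arrays limits the precision.

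The members, the gene lists and the tests were chosen with earlier results of these data known. Genes named are the members, the 5 most like each, FHL1, the 3 called list members with the largest level difference, and CLB2. Further list members, SWI4 and its partners, and neighbours were named after their values were seen. Deviations of same-numbered cultures did not correlate (r = -0.0563), so cultures were not paired by number. Cultures that shared sampling times carry different numbers. They were not paired either, and a test with that pairing was not run. Alternatives were scaling, the added constant, dim genes, early arrays, spline flexibility, period, peak reading and leaving out each culture.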

Additional observations from a re-analysis of the deposited data

Results flagged for a closer look

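The strain difference of each member differed between times by the interaction test over 58 arrays. The adjusted p was 6.87e-09 for FKH1, 5.45e-08 for FKH2, 0.00209 for NDD1 and 0.01 for HCM1 (limma), where 73.7% of all genes were called. The FKH1 difference was 0.31 between 62 and 102 min and 1.06 between 158 and 198 min. The FKH2 difference was 0.62 in the first window and -0.48 between 206 and 230 min. The HCM1 difference was 0.13 between 110 and 150 min and -0.46 between 206 and 230 min. The NDD1 difference was -0.29 in the first window and 0.40 between 158 and 198 min.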

How the results depend on the processing

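No called direction reversed under any alternative run. With 2 cultures per strain, few calls survive the loss of 1 culture (the lone culture is then assumed to vary like the other strain's). Leaving out each culture in turn, the level difference of FKH1 ranged from 0.37 to 0.62. Its window differences ranged from 0.36 to 0.53 (110 to 150 min), from 0.17 to 0.46 (206 to 230 min) and from 0.42 to 0.66 (238 to 262 min). Those of HCM1 ranged from -0.33 to -0.28 (158 to 198 min), from -0.59 to -0.33 (206 to 230 min) and from -0.42 to -0.048 (238 to 262 min, called only without mutant culture 1). Those of FKH2 ranged from -0.58 to -0.37 and from -0.42 to -0.33 in the last 2 windows, and those of NDD1 from 0.16 to 0.64 (158 to 198 min) and from -0.19 to 0.42 (238 to 262 min). The interaction's adjusted p (limma) ranged from 0.0113 to 0.118 for HCM1 and from 0.000511 to 0.0503 for NDD1. Peak-to-trough in the mutant ranged from 1.02 to 1.25 (HCM1), 0.92 to 0.97 (FKH1), 0.47 to 0.63 (FKH2, called without culture 1) and 0.88 to 1.21 (NDD1), and in wild type from 1.31 to 1.41 (HCM1), 0.72 to 0.73 (FKH1) and 0.96 to 1.02 (NDD1), where neither culture alone gave a periodic call. Genes called ranged from 289 to 1594 for level (586 with all cultures), 0 to 5 (6), 19 to 225 (46), 111 to 1478 (474), 532 to 2009 (1270), 366 to 3043 (1629) and 559 to 3120 (1932) in the 6 windows, 0 to 1 for dynamic range (8), 109 to 257 for periodicity in the mutant (580) and 0 to 103 in wild type (605).

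Same-numbered cultures did not deviate together and were sampled at different times, and a replicate block by that number changed 3 calls of members. FKH1 between 110 and 150 min (0.44) and HCM1 between 158 and 198 min (-0.31) were lost (adjusted p of 0.0666 and 0.0725, limma), and NDD1 between 158 and 198 min (0.40) was gained (0.0301). The block called 0 genes in the first window and 0 in dynamic range (518 at an unadjusted p under 0.05 without it). Adjusting over all windows together, HCM1 between 158 and 198 min (-0.31) and between 206 and 230 min (-0.46) and FKH2 from 238 min (-0.38) were lost, and 67 and 178 genes were called in the first 2 windows. With a period 10 min shorter, FKH1 lost its periodic call in the mutant (0.68) and in wild type (0.56, with 236 genes called). With the mean period of single cultures, a setting added after the data were seen, FKH1 had 0.49 in the mutant and 0.64 in wild type and lost both calls (371 and 332 genes). Without arrays before 62 min 307 and 275 genes were periodic and the members kept their calls. Dynamic range gave 142 genes without detrending and 21 after quantile normalization. The mutant lag of NDD1 was 24 min by the highest array and 22 min by a smoothing spline, which gave 35 min for FKH1 in the mutant and 28.5 min for FKH2 in wild type. Quantile normalization gave 33.5 min for FKH2 in wild type. The causes of these changes were not tested. Signal near background limits the earliest HCM1 values.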
